A study of Macaca mulatta with 10 samples.

Results

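Transcripts of 10 genes of microglia and of antigen presentation were followed across 5 dorsal thalamic nuclei in rhesus monkeys. The genes were AIF1, CSF1R, C1QA, C1QB, TYROBP, CX3CR1, ITGB2, ITGAM, CD74 and HLA-DRA, taken by name. Every probe set annotated to exactly 1 of these symbols was used, which gave 15 probe sets for the 10 genes, of 19065 probe sets for 11963 genes in all. AIF1 had 4 probe sets, ITGAM and HLA-DRA had 2 each, and the other 7 genes had 1 each. No member was lost to a filter on low values, because none was applied. Tissue micro-punches of untreated adult Macaca mulatta brain were profiled on an Affymetrix U133A array, whose probes were designed for human transcripts. The groups were Ventral Thalamus, Anterior Thalamus, Medial Thalamus, Pulvinar and Centre Median. Each had 2 arrays, numbered replicate 1 and replicate 2. The study asked which genes are particular to a nucleus. The labels give no sex and no number of animals, and they do not say whether a number stands for an animal, so p-values measure only the spread between these arrays, which may be technical.

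Microglia are the resident macrophages of the brain. They depend on the receptor CSF1R for survival, receive a neuronal signal through the chemokine receptor CX3CR1, and carry receptors that signal through the adaptor TYROBP. They are also the main source of C1q, the protein that starts the classical complement pathway and tags synapses and debris for uptake by complement receptor 3, the integrin pair of ITGAM and ITGB2. For MHC class II presentation, HLA-DRA forms one chain of the class II molecule and CD74 is the invariant chain that holds its peptide groove during transport. Both are induced in activated microglia, and both are also made by macrophages at the brain's borders, by dendritic cells and by B cells.

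The arrays differed more by replicate number than by nucleus. Across all probe sets, the correlation was 0.981 to 0.992 between arrays sharing a replicate number, and 0.943 to 0.962 between the pair of arrays from 1 nucleus. The lowest intensity on an array was 9.49 to 9.55 in replicate 2 and 11.97 to 12.3 in replicate 1. The signal of actin near the 3 prime end of its transcript exceeded that near the 5 prime end by 1.15 to 1.64 log2 units in replicate 2 and by -0.09 to 1.22 in replicate 1. For GAPDH the excess was 0.62 to 0.80 in replicate 2 and 0.24 to 0.84 in replicate 1. In replicate 1 both were highest in Ventral Thalamus. The log2 signal of XIST minus that of RPS4Y1, both sex-linked, was above 0 on all 5 replicate 2 arrays. In replicate 1 it was above 0 in Centre Median and Pulvinar and below 0 in Anterior Thalamus, Medial Thalamus and Ventral Thalamus. Of all arrays, Medial Thalamus replicate 2 held the highest single-array levels of CD74 and of the HLA-DRA probe set 208894_at, described below with and without it. All values are log2(intensity + 1) of normalized intensities, and a probe set was called at a Benjamini-Hochberg adjusted p under 0.05 in limma. In tissue punches, fewer cells of a type and less RNA per cell cannot be told apart.

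The microglial receptors and AIF1, a calcium-binding protein of microglia and macrophages also known as IBA1, were recorded in every nucleus. CSF1R, CX3CR1, CD74, the HLA-DRA probe set 208894_at and 3 of the 4 AIF1 probe sets lay above the array's median on all 10 arrays. The remaining AIF1 probe set, 207823_s_at, did so on 9 arrays, TYROBP on 5, C1QB on 3, and C1QA and the ITGAM probe set 205785_at on 1 each. ITGB2, the other ITGAM probe set 205786_s_at and the other HLA-DRA probe set 210982_s_at lay below the median on every array. No detection calls were used here, and a human probe can bind a rhesus transcript weakly, so a low intensity does not show absence. A probe set's place relative to the median therefore describes its signal and does not rank the genes by abundance.

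**Figure D1:**
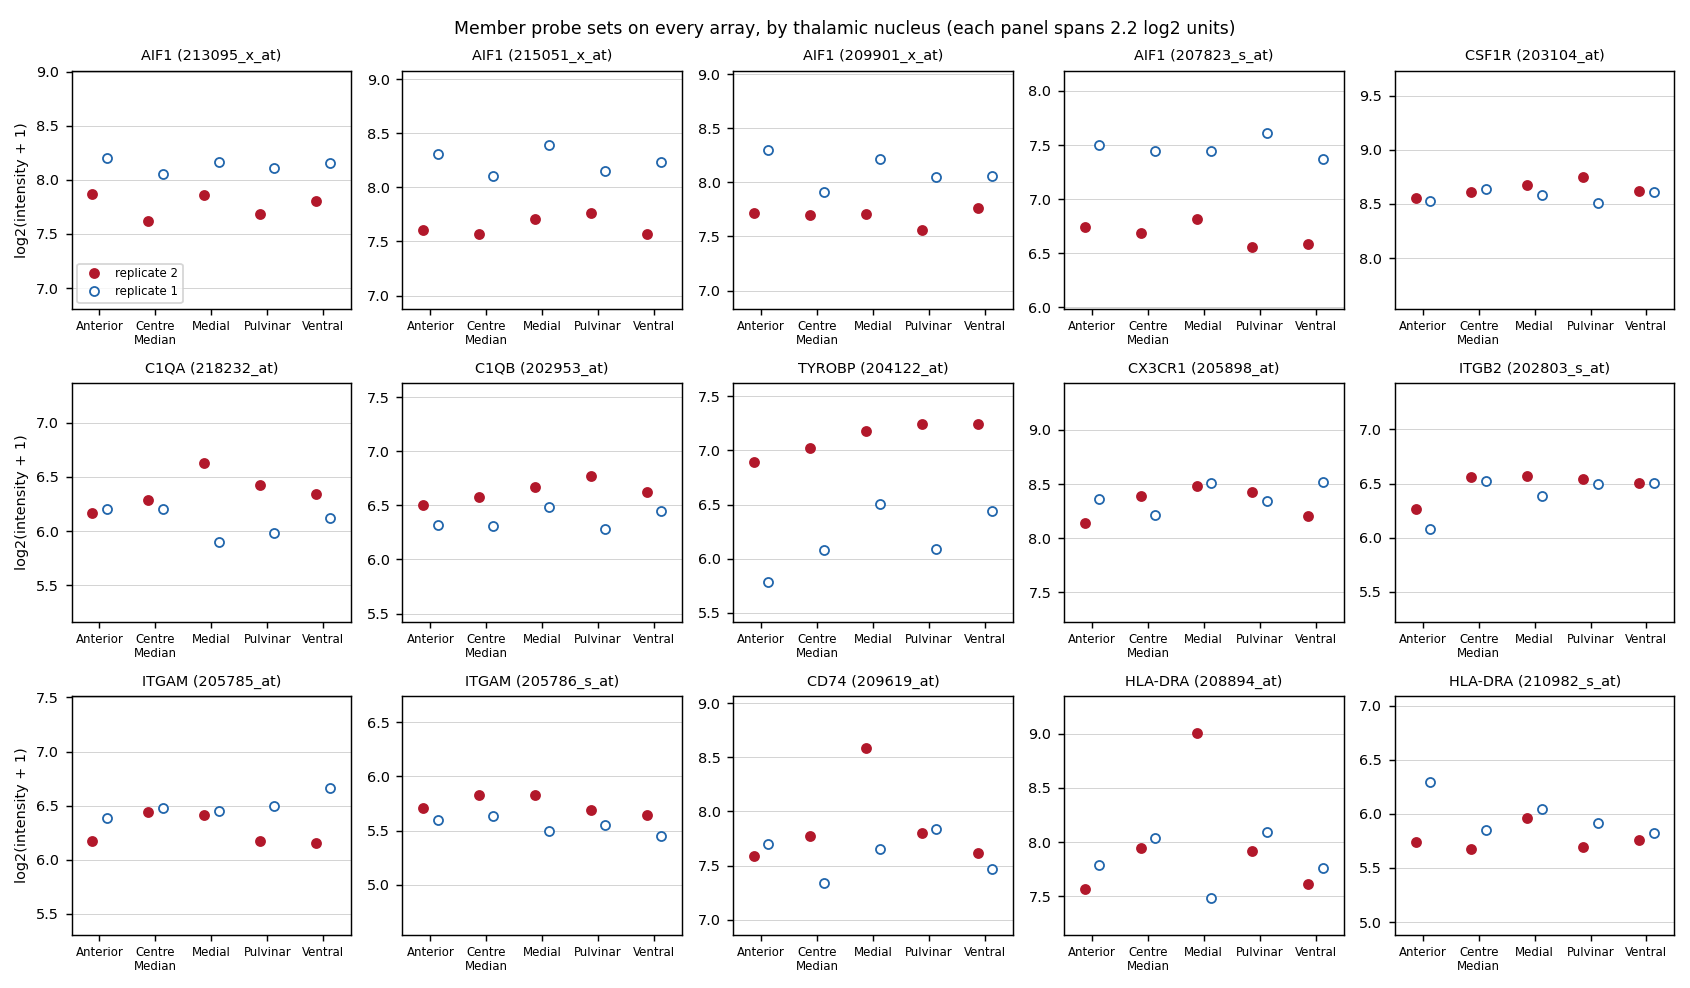
Log2(intensity + 1) of the 15 member probe sets, 1 panel each, in the 5 nuclei on the x axis. Filled points are replicate 2 arrays and open points replicate 1 arrays; the AIF1 panels separate by replicate number in every nucleus, TYROBP separates the other way, and HLA-DRA (208894_at) and CD74 have 1 high point, Medial Thalamus replicate 2, at 9.01 and 8.59.

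No member was called among nuclei. The moderated F test across the 5 nuclei called 0 of 15 member probe sets without a block, where it called 0% of all 19065, and 0 of 15 with the replicate number as a block, where it called 0.215%. At an unadjusted p under 0.05 it named 0 of 15 without the block, against 0.619% of all probe sets, and 2 of 15 with it, against 8.92%. These were TYROBP (limma adjusted p = 0.383) and ITGB2 (limma adjusted p = 0.540). The means of the 5 nuclei spanned 0.08 log2 units for C1QA at the least and 0.58 for CD74 at the most, with a median span of 0.20 over the members and of 0.23 over all probe sets. With the nuclei of each probe set ordered by mean, no neighbours in that order were called apart. The smallest limma adjusted p was 0.838 with the block and 0.999984 without it. Being adjusted over all probe sets, these values do not show that neighbours lay within their spread.

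Each nucleus set against the other 4 also gave 0 of 15 members called, in both fits. Without the block the share of all probe sets called was 0.0105% for Centre Median and 0% for each of the other nuclei. With the block it was 0.0944% for Centre Median, 0.0997% for Medial Thalamus, 0.336% for Ventral Thalamus, and 0% for Anterior Thalamus and Pulvinar. At an unadjusted p under 0.05 without the block, 1 of 15 members was named in Anterior Thalamus, against 0.372% of all probe sets, and 0 in each of the other nuclei, against 1.4% for Ventral Thalamus, 1.08% for Medial Thalamus, 0.913% for Centre Median and 0.336% for Pulvinar. With it, Anterior Thalamus named 2, against 5.63% of all probe sets, Medial Thalamus 2, against 9.6%, and Ventral Thalamus 1, against 10.7%. Centre Median and Pulvinar named 0, against 5.92% and 3.78%. The 10 direct pairs of nuclei likewise called 0 of 15, where 0% to 0.00525% of all probe sets were called without the block. With it the share called was 0.708% for Medial Thalamus minus Ventral Thalamus, 0.236% for Centre Median minus Ventral Thalamus and 0.0525% for Anterior Thalamus minus Centre Median. It was 0.0472% for Medial Thalamus minus Pulvinar, 0.042% for Centre Median minus Medial Thalamus and 0.0367% for Centre Median minus Pulvinar. Anterior Thalamus minus Ventral Thalamus gave 0.0105%, Pulvinar minus Ventral Thalamus 0.00525%, and the other 2 pairs 0%. The unadjusted 95% interval of a member's difference reached 0.23 log2 units to each side at the median with the block and 0.46 without it, over a range of 0.18 to 0.56 with the block and 0.26 to 1.004 without it. After adjustment over all probe sets, differences such as those of TYROBP and CD74 below did not pass.

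**Figure D2:**
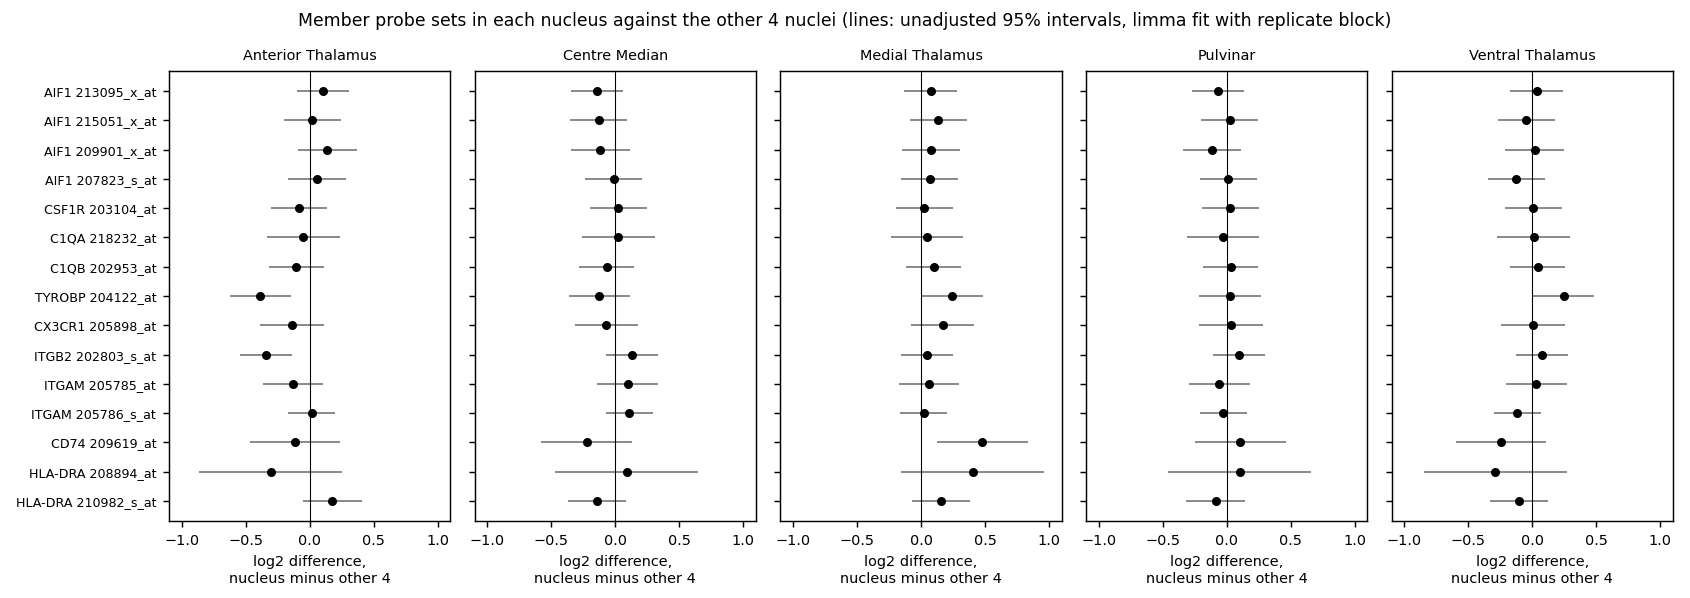
Log2 difference of each nucleus minus the mean of the other 4 nuclei for the 15 member probe sets, in the limma fit blocked on replicate number. Points are estimates from 2 arrays against 8 and lines are unadjusted 95% intervals; TYROBP and ITGB2 lie left of 0 in Anterior Thalamus and CD74 lies right of 0 in Medial Thalamus, at -0.39, -0.34 and 0.48, and none passed the adjusted threshold.

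TYROBP, which relays signals of TREM2 and related receptors, was lowest in Anterior Thalamus within both replicate numbers. It stood at 6.89 on replicate 2 and 5.79 on replicate 1 of Anterior Thalamus. The other replicate 2 arrays held 7.02 in Centre Median, 7.18 in Medial Thalamus, 7.24 in Pulvinar and 7.25 in Ventral Thalamus, and the other replicate 1 arrays held 6.08, 6.51, 6.09 and 6.44 in the same order. The groups overlapped, because the replicate 2 array of Anterior Thalamus lay above every replicate 1 array. The log2 difference of Anterior Thalamus from the rest was -0.39 ± 0.11 (SE) with the block, which did not pass the test (limma adjusted p = 0.843). Without the block and without the replicate 1 array of Anterior Thalamus the difference became 0.16, and with the block it stayed below 0 without any 1 array, at -0.49 to -0.28. The difference from the other nuclei was 0.24 ± 0.11 in Medial Thalamus (limma adjusted p = 0.515) and 0.24 ± 0.11 in Ventral Thalamus (limma adjusted p = 0.450), both with the block.

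Of the complement receptor 3 genes, ITGB2 encodes the beta chain that several leukocyte integrins share. In Anterior Thalamus it had 6.27 on replicate 2 and 6.08 on replicate 1, below all 8 arrays of the other nuclei, which lay between 6.39 and 6.57. The groups therefore did not overlap, and the difference of -0.34 ± 0.09 (SE, with the block) did not pass the test over all probe sets (limma adjusted p = 0.843). Anterior Thalamus was lowest in both replicate numbers for 3.08% of all probe sets, a looser rule. The share that lay below all 8 other arrays was not counted. The mean of ITGB2 was 6.17 ± 0.13 (SD, n = 2) in Anterior Thalamus and 6.48 to 6.55 in the other nuclei. ITGAM, the alpha chain, had means between 6.28 and 6.46 for 205785_at and between 5.55 and 5.73 for 205786_s_at. On both probe sets Centre Median had the highest mean, while the lowest was in Anterior Thalamus on the first and in Ventral Thalamus on the second. Across nuclei, the sign of a difference from the rest was shared by the 2 ITGAM probe sets in 3 of 5 nuclei.

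Of the 2 microglial receptors, CSF1R varied little. Its nucleus means spanned 0.09 log2 units and those of CX3CR1 0.24, against a median span of 0.20 over the members. CSF1R lay between 8.51 and 8.75 on all 10 arrays, with nucleus means from 8.54 in Anterior Thalamus to 8.63 in Pulvinar. CX3CR1 lay between 8.14 and 8.52, with means from 8.25 ± 0.16 in Anterior Thalamus to 8.49 ± 0.02 in Medial Thalamus (SD, n = 2 each). For CX3CR1 the difference of Medial Thalamus from the rest was 0.17 ± 0.11 (SE, with the block; limma adjusted p = 0.716), above 0 in both replicate numbers at 0.19 in replicate 2 and 0.15 in replicate 1. The C1q chains, which are made together, had means of 6.19 to 6.26 for C1QA and of 6.41 to 6.58 for C1QB, both highest in Medial Thalamus and lowest in Anterior Thalamus. In Medial Thalamus C1QA had 6.63 on replicate 2, the highest of all arrays, and 5.90 on replicate 1, the lowest.

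AIF1 gave no shared order of nuclei. Its probe sets 213095_x_at and 209901_x_at were highest in Anterior Thalamus, at means of 8.03 and 8.01, and 215051_x_at and 207823_s_at in Medial Thalamus, at 8.05 and 7.13. Centre Median was lowest on 3 of the probe sets and Ventral Thalamus on 207823_s_at. With replicate-number means subtracted, the 6 pairs of AIF1 probe sets correlated at -0.14 to 0.57 over the 10 arrays, a description without a test. Of the 4, 3 carry the suffix that marks probes which may also match other transcripts.

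For most members the highest nucleus differed between the replicate numbers, as did the lowest, and this held for most of all probe sets too. Of the 15 member probe sets 1, AIF1 213095_x_at in Anterior Thalamus, was highest in the same nucleus in replicate 2 and in replicate 1, against 23.8% of all probe sets. The lowest nucleus was the same in both for 4 of 15, against 21.2%, and these were TYROBP and ITGB2 in Anterior Thalamus, AIF1 213095_x_at in Centre Median and ITGAM 205786_s_at in Ventral Thalamus. The median log2 difference from the rest was -0.08 in Anterior Thalamus, -0.07 in Centre Median, 0.08 in Medial Thalamus, 0.02 in Pulvinar and 0.01 in Ventral Thalamus, where the median of all probe sets was -0.02 in Ventral Thalamus and below 0.001 in size elsewhere. In Medial Thalamus all 15 members had a difference above 0, against 50.1% of all probe sets. Markers of other cells moved in the same comparison. Above 0 lay 8 of 8 red cell (median 0.15) and 14 of 17 astrocyte probe sets (median 0.09). So did 15 of 22 blood and border myeloid (median 0.04), 11 of 16 lymphocyte (median 0.08) and 9 of 16 endothelium probe sets (median 0.03). Only 2 of 14 oligodendrocyte (median -0.52) and 3 of 14 neuron probe sets (median -0.17) did. Of habenula probe sets 14 of 14 did (median 0.40), but that list was chosen after the values were seen, so its count is no support. Within replicate 2 and replicate 1 the medians were 0.83 and -0.03 for habenula, 0.13 and 0.02 for red cell and 0.20 and 0.08 for astrocyte probe sets. They were -0.46 and -0.51 for oligodendrocyte and -0.32 and 0.04 for neuron probe sets. The part of these cells in the members' shift was not tested. The members' count was 15 of 15 within replicate 2 and 9 of 15 within replicate 1, and 9 of 15 remained above 0 when the replicate 2 array of Medial Thalamus was left out. The medians in the other nuclei and the counts behind them moved with the settings, as given at the end.

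CD74 and HLA-DRA carried the largest difference in Medial Thalamus, and it came from 1 array. HLA-DRA, on 208894_at, had 9.01 on replicate 2 and 7.48 on replicate 1 of Medial Thalamus, the highest and the lowest of all 10 arrays. The other replicate 2 arrays held 7.57 in Anterior Thalamus, 7.95 in Centre Median, 7.92 in Pulvinar and 7.61 in Ventral Thalamus, and the other replicate 1 arrays 7.79, 8.04, 8.09 and 7.77 in the same order. Thus the gap from the highest array to the next was 0.92 log2 units, and the 2 arrays of Medial Thalamus enclosed all others. CD74 had 8.59 on replicate 2 and 7.66 on replicate 1 of Medial Thalamus. The other 8 arrays lay between 7.34 and 7.84, so that the gap was 0.74 and the replicate 1 array lay among the other nuclei.

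By nucleus, CD74 averaged 8.12 ± 0.66 in Medial Thalamus, 7.82 ± 0.03 in Pulvinar, 7.65 ± 0.08 in Anterior Thalamus, 7.56 ± 0.31 in Centre Median and 7.54 ± 0.10 in Ventral Thalamus (SD, n = 2 each). HLA-DRA on 208894_at averaged 8.25 ± 1.08 in Medial Thalamus, 8.004 ± 0.12 in Pulvinar, 7.99 ± 0.06 in Centre Median, 7.69 ± 0.11 in Ventral Thalamus and 7.68 ± 0.15 in Anterior Thalamus. The SD of Medial Thalamus exceeded the distance between any of the means for both genes. The difference of Medial Thalamus from the rest was 0.48 ± 0.16 for CD74 (SE, with the block, limma adjusted p = 0.327) and 0.40 ± 0.26 for HLA-DRA (limma adjusted p = 0.685), and neither passed. Without the replicate 2 array it was 0.07 for CD74 and -0.44 for HLA-DRA. Without the replicate 1 array it was 0.89 for CD74 and 1.25 for HLA-DRA. In each case 1 array stood for Medial Thalamus and is assumed to vary like the other groups, so only the sizes are given. The second HLA-DRA probe set, 210982_s_at, had 5.96 on replicate 2 and 6.04 on replicate 1 of Medial Thalamus, within the 5.67 to 6.30 of the other arrays.

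On the high array the other class II genes had smaller gaps. HLA-DRA and CD74 were 2 of the 15 members more than 0.5 log2 units above each of the other 9 arrays there, where 50 of 19065 probe sets, or 0.262%, were so placed. Of 45 probe sets for 21 other genes of class II presentation, 7 were highest on this array, or 15.6% against 6.26% of all probe sets, and 0 by more than 0.5. Their median was 0.09 above the mean of the other replicate 2 arrays, against -0.01 over all probe sets. HLA-DPA1, a chain of another class II molecule, was highest there on 2 of its 3 probe sets, at 5.52 and 6.59. HLA-DMA, part of the machinery that exchanges peptides on class II molecules, had 6.76 on it and 6.07 to 6.38 on the other arrays. HLA-DRB1, the partner chain of HLA-DRA, had 7.84 on it, 7.29 to 7.75 elsewhere in replicate 2 and 6.997 to 7.35 in replicate 1. MHC genes are polymorphic and have near-identical copies, so human probe sets can share signal between them, and their single values are uncertain. CIITA, the transcriptional activator of class II genes, had 4.97, 7.69 and 5.27 on its 3 probe sets there, inside the range of the other arrays on 2 of them and below it by 0.04 on 211884_s_at.

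**Figure D3:**
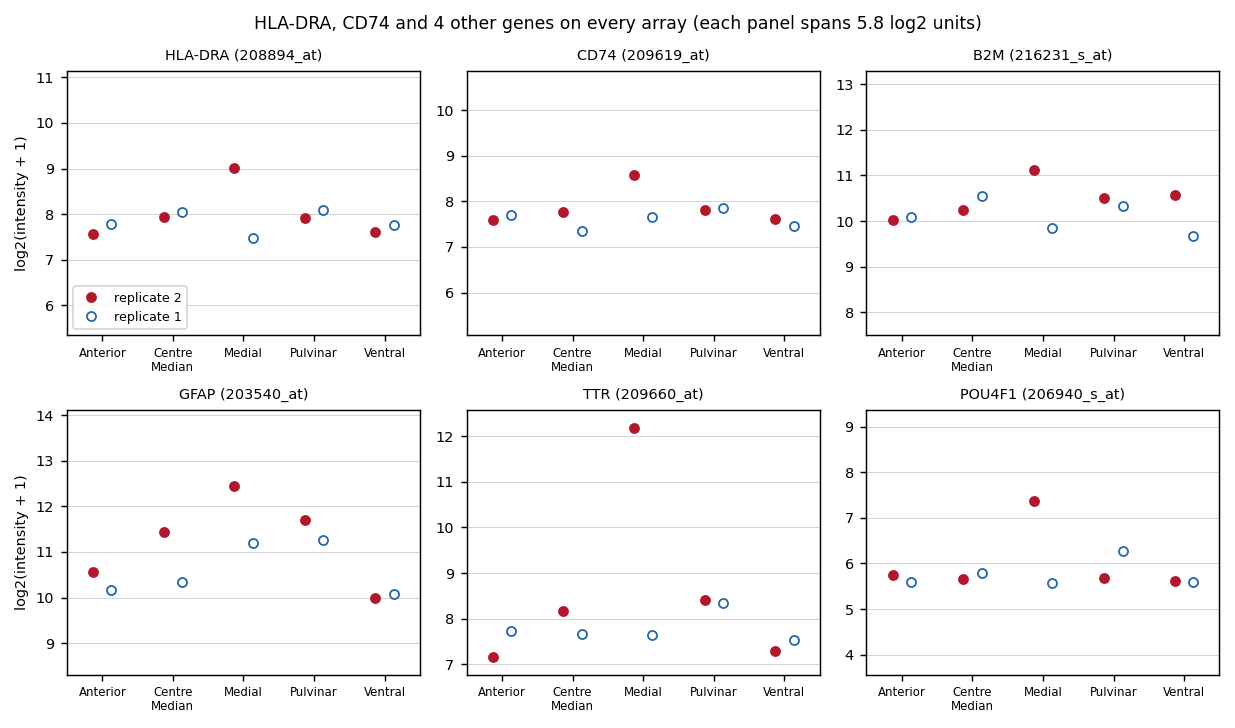
Log2(intensity + 1) of HLA-DRA (208894_at), CD74, B2M (216231_s_at), GFAP (203540_at), TTR and POU4F1 (206940_s_at) in the 5 nuclei, filled points for replicate 2 arrays and open points for replicate 1 arrays. In every panel the highest point is Medial Thalamus replicate 2, at 9.01, 8.59, 11.12, 12.44, 12.19 and 7.36.

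Genes of MHC class I and of other tissues moved on the same array. B2M, the light chain of class I molecules, had 11.12 on its probe set 216231_s_at, against 9.67 to 10.58 on the other arrays, and 16 of 41 class I probe sets, or 39%, were highest there. TTR, a transport protein made by the choroid plexus, had 12.19, against 7.17 to 8.41 on the other arrays. HTR2C, a serotonin receptor abundant in the choroid plexus and also present in neurons, had 8.83 on 207307_at and stood 2.71 above the next array. Its other probe set, 211479_s_at, had 4.64 on this array and 4.78 on replicate 1 of Medial Thalamus, above the 3.86 to 4.40 of the other nuclei. POU4F1, a transcription factor of habenular neurons, had 7.36 on 206940_s_at and stood 1.09 above the next array.

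Marker lists of neighbouring tissues were read on the same array, where 6.26% of all probe sets were highest. The habenula, meninges and choroid plexus lists were chosen after these values were seen, so their counts and shares are descriptions and no support. Of 14 habenula probe sets 8 were highest there and 6 by more than 0.5, with a median of 0.83 above the mean of the other replicate 2 arrays. For meninges 10 of 24 were highest, with a median of 0.22, and for choroid plexus 5 of 23, with a median of 0.07. The shares highest there were 57.1% for habenula, 41.7% for meninges and 21.7% for choroid plexus. The summed intensity of the choroid plexus list was 10360 on this array, against 4867 to 5892 elsewhere in replicate 2 and 3503 to 6750 in replicate 1. TTR alone made 4656 of it, and without TTR the sum was 5704.5 on this array, against 4534 to 5604 elsewhere in replicate 2 and 3305 to 6547 in replicate 1. Astrocyte probe sets were highest there in 6 of 17, or 35.3%, among them GFAP at 12.44, while 0 of 14 oligodendrocyte and 0 of 14 neuron probe sets were. Their medians were 0.20, -0.46 and -0.32 relative to the other replicate 2 arrays, and that of oligodendrocytes was -0.51 in replicate 1. Of the blood lists, 5 of 22 blood and border myeloid (22.7%), 0 of 16 lymphocyte and 2 of 8 red cell probe sets (25%) were highest there. The part of these tissues and cells in the levels of HLA-DRA and CD74 was not tested.

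The clearest differences among the members were between replicate numbers. Of the 15 member probe sets 10 were called in replicate 2 minus replicate 1, 4 higher and 6 lower, where 54% of all probe sets were called, 24.1% higher and 29.9% lower. The arrays of the 2 numbers did not overlap for 7 of 15, against 38.2% of all probe sets. The members' shares of 66.7% called and 46.7% not overlapping lay near that background. The actin 3 prime excess largely followed replicate number, though Ventral Thalamus replicate 1, at 1.22, exceeded Centre Median replicate 2, at 1.15. With this excess as a covariate 1 of 15 members was called higher and 0 lower. The covariate takes up part of the replicate difference, and the share of all probe sets called with it is not given here. That count therefore cannot be set against a background. The part of animal, RNA quality and array processing in the differences between replicate numbers cannot be told apart.

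**Figure D4:**
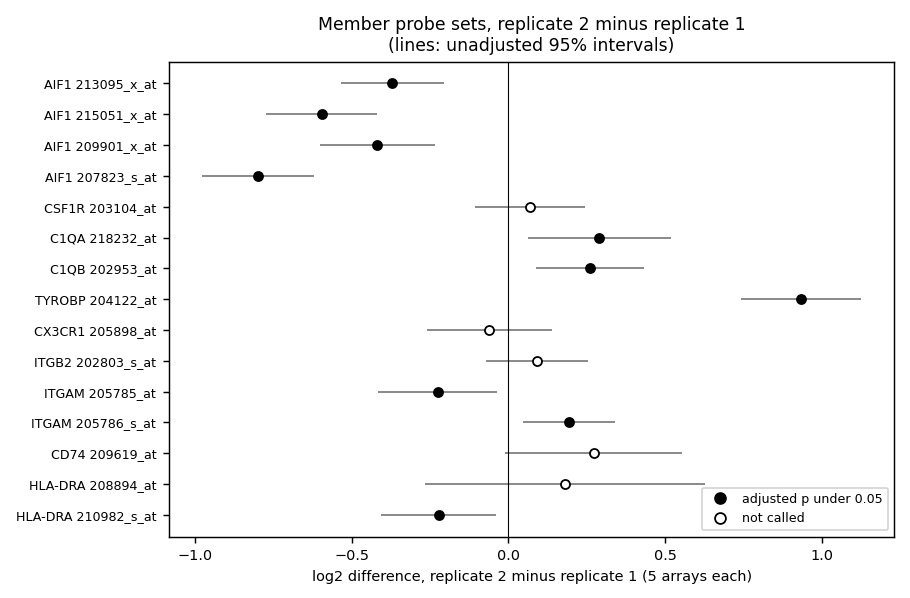
Log2 difference of replicate 2 minus replicate 1 for the 15 member probe sets, from 5 arrays each in the limma fit with nucleus and replicate number. Points are estimates, filled where the adjusted p is under 0.05, and lines are unadjusted 95% intervals; TYROBP is at 0.93 and the 4 AIF1 probe sets lie between -0.80 and -0.37.

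TYROBP rose and AIF1 fell in replicate 2. TYROBP, whose 10 values are given above, ran between 6.89 and 7.25 in replicate 2, against 5.79 to 6.51 in replicate 1. The groups did not overlap, and the mean of 7.12 ± 0.16 in replicate 2 against 6.18 ± 0.29 in replicate 1 (SD, n = 5 each) was a 1.91-fold difference (log2 0.93 ± 0.09 SE, limma adjusted p = 5.4e-06). With the actin covariate it was 1.03 (limma adjusted p = 0.0471). On 207823_s_at, AIF1 in replicate 2 had 6.82 in Medial Thalamus, 6.74 in Anterior Thalamus, 6.68 in Centre Median, 6.58 in Ventral Thalamus and 6.56 in Pulvinar. In replicate 1 it had 7.44 in Medial Thalamus, 7.50 in Anterior Thalamus, 7.45 in Centre Median, 7.37 in Ventral Thalamus and 7.61 in Pulvinar. Again the groups did not overlap, and the difference was -0.80 ± 0.08 (SE, limma adjusted p = 1.1e-05). The other AIF1 probe sets fell by 0.37, 0.42 and 0.60, lower in 5 of 5 nuclei each, with limma adjusted p-values of 0.0014, 0.0013 and 8.6e-05. With the actin covariate the AIF1 differences were -0.92 to -0.15 and none was called (limma adjusted p = 0.0567 to 0.753).

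Both measured C1q chains were higher in replicate 2. C1QA averaged 6.37 ± 0.17 in replicate 2 and 6.08 ± 0.14 in replicate 1 (SD, n = 5 each), higher in 4 of 5 nuclei, a log2 difference of 0.29 ± 0.10 (SE, limma adjusted p = 0.0339). C1QB averaged 6.63 ± 0.10 in replicate 2 and 6.37 ± 0.09 in replicate 1, higher in 5 of 5 nuclei, a difference of 0.26 ± 0.08 (limma adjusted p = 0.0150). Without the arrays of Medial Thalamus, Pulvinar or Ventral Thalamus in turn, C1QA was 0.18, 0.25 and 0.31 and was not called. C1QB was not called without the arrays of Pulvinar, at 0.20 (limma adjusted p = 0.0732). With the actin covariate C1QA turned to -0.16 and C1QB was 0.26, and neither was called.

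For 2 genes the probe sets disagreed in direction. ITGAM fell by 0.23 on 205785_at (limma adjusted p = 0.0444) and was higher by 0.19 on 205786_s_at (limma adjusted p = 0.0290). HLA-DRA on 210982_s_at fell by 0.22 (limma adjusted p = 0.0402), while 208894_at had a difference of 0.18 (limma adjusted p = 0.479) that was higher in 1 of 5 nuclei and became -0.16 without Medial Thalamus. These calls lay near the threshold. Leaving out the arrays of Anterior Thalamus, Pulvinar or Ventral Thalamus ended that of ITGAM 205785_at, at -0.23, -0.20 and -0.15. The call of 205786_s_at ended without Centre Median, Medial Thalamus, Pulvinar or Ventral Thalamus, at 0.19, 0.16, 0.21 and 0.19. That of HLA-DRA 210982_s_at ended without Anterior Thalamus, Centre Median or Pulvinar, at -0.14, -0.23 and -0.22. CSF1R, CX3CR1, ITGB2 and CD74 were not called, with differences of 0.07, -0.06, 0.09 and 0.27. CD74 was called without the arrays of Anterior Thalamus, at 0.37 (limma adjusted p = 0.0471).

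Among nuclei, none of the other immune genes was called either. This covered 76 probe sets of 51 other microglia and macrophage genes, 68 of 30 ligands and signalling partners of the members, 45 of 21 other class II genes, 41 of 17 class I genes and 24 of 20 interferon response genes, in each nucleus against the rest and in both fits. CX3CL1, the neuronal ligand of CX3CR1, had 9.47 on its probe set 823_at in Ventral Thalamus replicate 1, its highest value. Its difference in Ventral Thalamus was 0.32, and it was not called. In Medial Thalamus 52 of 76 microglia and macrophage probe sets had a difference above 0 with a median of 0.05, 30 of 41 class I probe sets with a median of 0.08, and 28 of 45 class II probe sets with a median of 0.02, against 50.1% and a median of 0 over all probe sets. In Anterior Thalamus 9 of 41 class I probe sets lay above 0, with a median of -0.13. The marker lists of other cells held 5 called probe sets, all with the block. In Ventral Thalamus MOG, CNP and MAG, all of myelin, were higher by 0.67, 0.87 and 0.86 on 1 probe set each, and the astrocytic water channel AQP4 fell by 1.27 on 1 probe set. In Medial Thalamus HTR2C, of the choroid plexus list, was higher by 0.545 on 211479_s_at (limma adjusted p = 0.0259).

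Between replicate numbers, calls fell on every immune list in both directions, where 24.1% of all probe sets were called higher and 29.9% lower. The calls named here and in the following paragraphs are to be read against those shares. They do not by themselves set the immune genes apart from the rest. Of the 76 probe sets of other microglia and macrophage genes 10 were higher and 26 lower in replicate 2. SPP1, or osteopontin, which oligodendrocytes and neurons also make, was higher by 2.06 (limma adjusted p = 1.6e-05) and C3, the central complement protein, by 0.84 (limma adjusted p = 6.8e-05). Lower were CYBB by -0.73, a subunit of the phagocyte oxidase, BIN2 by -0.67, LCP1 by -0.64 and LPL by -0.58. These 4 differences are each from 1 probe set. A second CYBB probe set was also called lower, at -0.35, while the remaining CYBB probe set and another of LPL were called higher, at 0.21 and 0.24.

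Of the 68 probe sets of ligands and partners 8 were higher and 21 lower, against 24.1% and 29.9% of all probe sets. ICAM1, a ligand of the integrin of ITGAM and ITGB2, differed by -0.61 and -0.67 on 2 of its 3 probe sets, and CSF1, a ligand of CSF1R, by -0.52 and -0.54 on 2 of its 4. The complement proteases C1S and C2 differed by -0.74 and -0.57. SIRPA, the phagocyte receptor of CD47, was called on all 3 of its probe sets, at -0.69, -0.26 and 0.26, so that its direction was not shared. CD47 was higher by 0.57 on 1 of its 4 probe sets, and the others, at 0.02, 0.02 and -0.12, were not called. CLU, or clusterin, was higher by 0.85 and 0.33 on 2 of its 3 probe sets, and CD46, a complement regulator, was higher by 0.90 on 1 probe set and lower by -0.47 and -0.49 on others.

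Of the 45 other class II probe sets 5 were higher and 19 lower, and of the 41 class I probe sets 6 were higher and 7 lower. The shares of all probe sets were 24.1% higher and 29.9% lower. CTSL, a lysosomal protease, was higher by 0.77. HLA-DQA1 differed by -0.55 and -0.28 on its 2 probe sets, CD40 by -0.50 and -0.27 on 2 of 4, and HLA-DRB4 by -0.50 and -0.35 on 2 of 3. RFX5, a subunit of the factor that binds class II promoters, had 1 probe set at -0.51 and 1 at 0.46. In class I, PDIA3 was higher by 0.79, B2M by 1.02 on 1 of its 2 probe sets, and HLA-E by 0.84 and 0.29 on 2 of 3. CALR differed by -0.82, -0.42 and -0.35 on its 3 probe sets, TAPBP by -0.60 and -0.36 on both of its own, and TAP2 by -0.57 on 1 of 3. Of the interferon response genes 3 of 24 probe sets were higher and 6 lower, with OAS2 at -0.68 and -0.60 on its 2 probe sets, and OAS1 at -0.55 and IFI44 at -0.36 on 1 of 2 each.

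Markers of other cells also differed between the numbers, with the same 24.1% higher and 29.9% lower over all probe sets. Of lymphocyte probe sets 0 were higher and 12 of 16 lower, of red cell probe sets 0 and 4 of 8, and of blood and border myeloid probe sets 4 and 6 of 22. Astrocyte probe sets were called higher in 9 of 17 and lower in 1, and oligodendrocyte probe sets higher in 6 of 14 and lower in 1. The summed intensity was 12623 to 16918 in replicate 2 and 8167 to 10917 in replicate 1 for astrocytes, and 1489 to 1675 in replicate 2 and 1899 to 2095 in replicate 1 for lymphocytes. For the 15 members it was 2306 to 3057 in replicate 2 and 2572 to 2730 in replicate 1. The part of cell composition in the members' differences was not tested.

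Within replicate numbers the members moved together in part. With the mean of each replicate number subtracted and 1 probe set per gene, the 45 pairs of members correlated over the 10 arrays at -0.55 to 0.82, with a median of 0.28, and 37 were above 0, where the median over all pairs of genes was 0.004. Without Medial Thalamus replicate 2 the median was 0.06. The closest pair was CD74 with HLA-DRA at 0.82, which was 0.22 without that array. C1QB correlated at 0.80 with TYROBP, 0.76 with CX3CR1 and 0.75 with CSF1R, and these were 0.79, 0.78 and 0.74 without it. AIF1 and ITGB2 ran opposite, at -0.55 with the array and -0.71 without it. These are descriptions over 10 arrays, 5 of each replicate number, and these arrays differed in the actin 3 prime excess given above.

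Among all genes, those most like the mean of the 10 members over the 10 arrays were FANCF at 0.95, TPPP3 at 0.93, VIM at 0.90, PLA2G2D at 0.90 and PMEL at 0.89. For HLA-DRA they were MDM1, RBM25, TTR, HNMT and BAG3, at 0.94 to 0.95, and TTR was the gene with the widest gap on the Medial Thalamus replicate 2 array. On their probe sets of highest mean all of these genes were highest on that array, as was HLA-DRA. Their correlations without that array are not given here. For C1QB the most alike genes were ACVR2B at 0.93, SLC43A3 and OSBPL11 at 0.92, TAP1, a transporter of peptides for class I, at 0.87, and SND1 at 0.87. With 10 arrays and 11963 genes, values of this size are a ranking only.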

How the data were processed

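The authors deposited normalized intensity values made with RMA, a method named in the submitters' processing notes without a version; the genome build is not given in the sources used here. RMA subtracts background, normalizes arrays together and summarises each probe set, so a level depends on the arrays processed with it; whether all 10 were processed together is not given in the sources used here. From these, log2(intensity + 1) was computed. Of 22283 probe sets, the 19065 with exactly 1 gene symbol and no control role were fitted with limma 3.58.1 in R 4.3.3, with a variance trend and Benjamini-Hochberg adjustment over all of them. Nuclei were compared in a fit of nucleus alone and in one that adds replicate number as a block; the replicate difference comes from the second. Differences between replicate numbers correlated at 0.752 to 0.828 across probe sets for every pair of nuclei, so the numbers were treated as paired, from the data and not from the labels. The sign of XIST minus RPS4Y1 differed among the replicate 1 arrays. The pairing is therefore of numbers and not of animals, and sex or animal may differ between nuclei within replicate 1. The block changed no call of a member among nuclei. The method was tested on simulated data. Precision is limited by there being 10 arrays.

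The members and lists were chosen with earlier results of these data known, and the choroid plexus, meninges and habenula lists after the values were seen. All members are named; of other lists, at most 6 called probe sets with the smallest p per comparison, and further genes named beside them were chosen after their values were seen. The 5 genes most like the members, HLA-DRA and C1QB were taken by Pearson correlation. Symbols of 9 members matched the macaque RefSeq table directly and HLA-DRA matched as a synonym. Other settings were another or no pseudocount, a filter at a mean log2 of 6, quantile normalization, 1 probe set per gene, no variance trend, an actin covariate, a split of replicate 1 by XIST and RPS4Y1, and each array left out. Figures were drawn with matplotlib.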

Additional observations from a re-analysis of the deposited data

Results flagged for a closer look

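Within each replicate number, the 5 arrays were searched for 1 that stood far from the other 4, by its gap to the nearest array as a share of the whole range. For 5 arrays a share above 0.71 was taken as far, which chance gives in about 1 of 20 groups. Of the 30 groups tested, 15 member probe sets in each replicate number, 3 passed, all in replicate 2. CD74 in Medial Thalamus, at 8.59, had a gap of 0.7845 of the range, where the next array had 7.80 and the lowest 7.59. HLA-DRA on 208894_at, also in Medial Thalamus and at 9.01, had a gap of 0.7368, with 7.95 next and 7.57 lowest. ITGB2 stood apart at the low end, in Anterior Thalamus at 6.27, with a gap of 0.7711, where the next array had 6.501 and the highest 6.57.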

How the results depend on the processing

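In the 10 other settings tried on all arrays, 0 of 15 members were called among nuclei in each comparison. The medians of the members against the rest were small and moved with the setting. Centre Median gave -0.0571 with a pseudocount of 16, -0.0217 with the probe set of highest mean per gene, -0.0530 with the block and the actin covariate, and -0.0463 with the block and replicate 1 split by XIST and RPS4Y1, against -0.0664. Pulvinar gave 0.0053 with quantile normalization, with or without the block, and -0.0309 with the split, against 0.0234. Ventral Thalamus gave -0.0324 with quantile normalization, with or without the block, and -0.0599 with the actin covariate, against 0.0075. Members above 0 numbered 1 in Anterior Thalamus with 1 probe set per gene (of 10 genes), and 3 and 5 in Ventral Thalamus with the actin covariate and the split. Between replicate numbers, 2 genes were called lower with 1 probe set per gene, and the actin covariate left 1 higher and 0 lower. That covariate largely follows replicate number, and the share of all probe sets called with it is not given here. Signs turned for CSF1R with quantile normalization (-0.1452), and with the actin covariate for CSF1R (-0.0218), C1QA (-0.1638), ITGB2 (-0.0883), CD74 (-0.2586) and HLA-DRA 208894_at (-1.235, adjusted p in limma 0.107). For each of these the cause was not tested.

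Leaving out each array in turn, the members' medians ranged from -0.1557 to 0.0354 in Anterior Thalamus, -0.0916 to 0.0202 in Centre Median, 0.0155 to 0.1356 in Medial Thalamus, -0.0646 to 0.0691 in Pulvinar and -0.1377 to 0.0280 in Ventral Thalamus. Members above 0 ranged from 2 to 8 in Anterior Thalamus, 9 to 15 in Medial Thalamus and 4 to 10 in Ventral Thalamus. Members were called among nuclei only in the fit with the block without Medial Thalamus replicate 1. There 1 array stands for that nucleus, and the share of all probe sets called is not given here, so those calls are not counted. Members called higher in replicate 2 ranged from 1 to 5 and lower from 4 to 6, with 1 higher without the Pulvinar arrays and 2 without those of Medial Thalamus or Ventral Thalamus. TYROBP in Anterior Thalamus ranged from -0.9371 to 0.1627 and HLA-DRA 208894_at in Medial Thalamus from -0.4385 to 1.2472. Between replicate numbers HLA-DRA 208894_at ranged from -0.1580 to 0.2787 and CX3CR1 from -0.1217 to 0.0013. Leaving out 1 array removes its nucleus from the replicate difference, since the other array then has no partner.

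Signal over background limits these values. Without detection calls, how far dim members such as ITGAM 205786_s_at, at a mean of 5.64, stood above background is not known. The lowest intensity on an array differed between replicate numbers. It was lower in replicate 2, where ITGAM 205786_s_at was higher.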
